A study of Mus musculus with 6 samples.

Results

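The genes described here encode the proteasome, the protease that degrades ubiquitin-tagged proteins, with its immunoproteasome subunits, activators, inhibitor and assembly chaperones. They were taken as every gene whose symbol begins with Psma, Psmb, Psmc, Psmd, Psme, Psmf or Psmg followed by a digit, which gave 50 of 24343 genes. RNA had been sequenced from natural killer (NK) cells of the spleens of female C57BL/6 mice, sorted as NK1.1+ NKp46+ cells that lacked CD3 and did not bind the CD1d tetramer. One group of mice had received complexes of interleukin-15 (IL-15C, 3 libraries) and the other complexes of interleukin-2 (IL-2C, 3 libraries), and both groups are otherwise described alike. The mice's age, the dose, the time of harvest and the partner protein in the complexes are not given in the sources used here. There was no untreated group, so every comparison is between 2 treatments. No label says whether libraries of a group came from separate mice, so the p-values measure the spread between these libraries, which may be technical.

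The proteasome consists of a barrel, the 20S core, and caps that open it. Outer rings of alpha subunits gate the barrel, and inner rings of beta subunits hold the proteolytic sites of Psmb5, Psmb6 and Psmb7. In lymphocytes, and in most cells exposed to interferon-gamma, newly made cores can carry Psmb8, Psmb9 and Psmb10 in place of Psmb5, Psmb6 and Psmb7, which changes the peptides produced for MHC class I molecules. The 19S cap holds a base with a ring of ATPases, which unfolds the substrate, and a lid, which removes its ubiquitin. Psme1 and Psme2 form PA28, another cap that interferon induces.

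The start regions of 4 genes are shown because they belong to the immunoproteasome pair encoded in the MHC, to the activator gene at the highest level and to a constitutive catalytic subunit. Each runs from 250 bases before to 50 bases after the transcription start in RefSeq on GRCm38.p6, the build of mm10, and capitals mark a match to a motif searched.
Psmb9, chr17:34187281-34187580, minus strand, CCAAT motif on the opposite strand: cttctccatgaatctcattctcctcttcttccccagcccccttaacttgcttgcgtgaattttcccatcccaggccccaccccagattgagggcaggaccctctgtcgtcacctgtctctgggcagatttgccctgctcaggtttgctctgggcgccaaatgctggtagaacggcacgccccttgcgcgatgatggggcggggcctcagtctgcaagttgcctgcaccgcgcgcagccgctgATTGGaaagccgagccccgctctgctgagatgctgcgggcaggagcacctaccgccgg
Psmb8, chr17:34197945-34198244, plus strand, gamma-activated site: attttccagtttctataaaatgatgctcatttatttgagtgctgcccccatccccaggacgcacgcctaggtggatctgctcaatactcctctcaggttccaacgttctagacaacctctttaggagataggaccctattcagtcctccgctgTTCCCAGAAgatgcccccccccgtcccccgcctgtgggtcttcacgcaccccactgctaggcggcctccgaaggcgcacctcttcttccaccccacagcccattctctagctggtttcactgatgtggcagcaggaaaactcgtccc
Psme1, chr14:55578244-55578543, plus strand, interferon response element on the opposite strand: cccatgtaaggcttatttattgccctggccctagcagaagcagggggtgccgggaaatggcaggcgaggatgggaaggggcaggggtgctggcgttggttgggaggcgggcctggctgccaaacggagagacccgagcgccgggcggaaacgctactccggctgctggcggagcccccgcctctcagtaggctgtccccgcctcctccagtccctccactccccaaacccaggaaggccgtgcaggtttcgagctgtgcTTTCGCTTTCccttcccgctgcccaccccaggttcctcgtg
Psmb5, chr14:54617946-54618245, minus strand, antioxidant response element core: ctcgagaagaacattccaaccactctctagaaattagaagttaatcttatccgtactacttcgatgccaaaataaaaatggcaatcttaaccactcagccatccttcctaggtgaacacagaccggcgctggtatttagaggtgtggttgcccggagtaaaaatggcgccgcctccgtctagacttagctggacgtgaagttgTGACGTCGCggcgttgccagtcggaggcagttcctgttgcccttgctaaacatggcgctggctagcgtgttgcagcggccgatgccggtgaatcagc
Start regions were available for 42 of the 50 genes, in 45 windows, and were searched on both strands. The antioxidant response element core TGACNNNGC, to which the proteasome gene regulators Nfe2l1 and Nfe2l2 bind with partner proteins, occurred in 13.3% of the 45 windows and in 12.4% of all 32851 windows of the table. The CCAAT box occurred in 33.3% and 37.4%, and the gamma-activated site TTCNNNGAA, an element of interferon-gamma signalling, in 6.67% and 8.30%. The interferon response element GAAANNGAAA occurred in 11.1% of the proteasome windows, those of Psmb3, Psmd4, Psmd9, Psme1 and Psmg4, and in 3.44% of all windows. The windows of Psmb8, Psmb9, Psmb10 and Psme2 held no match to it. Those of Psmb10 and Psme2 held no match to any motif searched. In the printed windows the match began 8 bases before the start of Psmb9, 97 bases before that of Psmb8, 47 bases before that of Psmb5, and at base 10 of the Psme1 transcript. Such a match is a string of letters and not a measured binding site. The RefSeq start sites of Psmb9 and of Tap1, a subunit of the peptide transporter that carries proteasome products into the endoplasmic reticulum, lie 226 bases apart on chromosome 17 and point away from each other.

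The deposited intervals implied 23543141 to 27229145 fragments per library. Values are in FPKM, fragments scaled by transcript length and library size, so levels of different genes can be set side by side. All 6 fixed NK cell markers passed the filter, with a summed level of 3796 to 4252 FPKM per library. The summed level of 5 granulocyte markers was 107 FPKM in IL-15C replicate 1 and 38.9 to 58.2 in the other 5 libraries. That of 5 erythroid markers was 17.4 FPKM in IL-15C replicate 1 and 0.991 to 3.34 in the others, and that of 6 T cell markers was 71.8 against 50.6 to 58.1. The 4 MHC class II genes summed to 6.87 to 34.0 FPKM in IL-15C and to 12.5 to 53.0 in IL-2C, and the 5 B cell markers to 1.03 to 8.59 and 2.87 to 13.6. Ranges of the 5 monocyte and macrophage markers were 15.8 to 26.5 and 12.9 to 21.1 FPKM, and those of the 3 platelet markers were 1.88 to 2.55 and 2.25 to 3.11. None of the markers was at 0 in all libraries. All NK cell, MHC class II and granulocyte markers entered the test described next. So did 3 of the 6 T cell markers, 2 of the 5 B cell markers and 1 each of the monocyte and macrophage, erythroid and platelet markers. None of those tested passed, and the other markers were below the filter and had no test.

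Of the 50 genes, 47 reached a mean of 1 FPKM over the 6 libraries and were tested within a fit of 9831 genes. None rose and none fell in IL-15C relative to IL-2C by limma's moderated test on log2(FPKM + 1), with Benjamini-Hochberg adjustment over all genes fitted and a threshold of 0.05. The same fit called 6.44% of all tested genes, of which those higher in IL-15C made up 1.72% and those lower 4.72%. At an unadjusted p under 0.05 there was 1 higher and 3 lower among the 47 genes, beside 6.48% higher and 20.4% lower among all. This balance changed with the scaling. It was 8 higher and 1 lower with a common library median, 5 and 2 under TPM and 7 and 2 after quantile normalization. Of all 9831 genes, 2537, 2578 and 2585 had such a p by limma in either direction under these scalings. In the main fit, on the deposited values, the most positive log2 change was 0.17 (Psme2) and the most negative -0.17 (Psmd10). These are folds of 1.13 and 0.887. The 95% intervals of the 47 changes in the main fit reached at most from 0.818-fold to 1.29-fold. A change beyond that range lay outside every interval of that fit. Over the main fit and 16 alternatives, the log2 change ran from 0.07 to 0.25 for Psme2 and from -0.21 to -0.12 for Psmd10. The range of the intervals thus holds for the main fit only. In bulk RNA, fewer cells of a type and less RNA per cell cannot be told apart.

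The middle of the distribution was close to 0. The median change of the 47 genes was -0.01 on the log2 scale, beside -0.04 for all tested genes. A change smaller than 0.1 in size was found for 41 of the 47 (87.2%) and for 60.7% of all tested genes. As deposited, 18 genes were above 0 (38.3%, beside 35.3% of all tested genes) and 29 below. The count above 0 became 37 after scaling to a common library median (78.7%, beside 50.2%), 25 after rescaling to TPM (53.2%, beside 40.2%) and 30 after quantile normalization (63.8%, beside 47.5%). The balance of signs thus changed with the scaling, while the share above 0 was higher than that of all tested genes under each scaling. That order depended on 1 library and on the filter. The share was lower than that of all genes without IL-15C replicate 1 (23.4%, beside 30.4%) and without the filter on low values (36.0%, beside 41.1%). It was higher under every other alternative, and the difference was not tested. In 6 of 47 genes (12.8%) all deposited values of one group lay above all of the other, against 33.3% of all tested genes. The 3 that were higher in IL-15C were Psmd14, Psme1 and Psme4, beside 8.15% of all tested genes, and the 3 that were lower were Psmb1, Psmd10 and Psmd5, beside 25.1%. Without IL-15C replicate 1 the 19S ATPase gene Psmc3 passed the threshold (log2 change -0.18, adjusted p = 0.0465 by limma) and 7.64% of all genes were called. The share of all genes called was 1.81% when IL-15C replicate 2 was left out and 2.52% when IL-15C replicate 3 was. Leaving out replicate 1, 2 or 3 of IL-2C gave 0.468%, 0.295% and 3.40%.

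**Figure D1:**
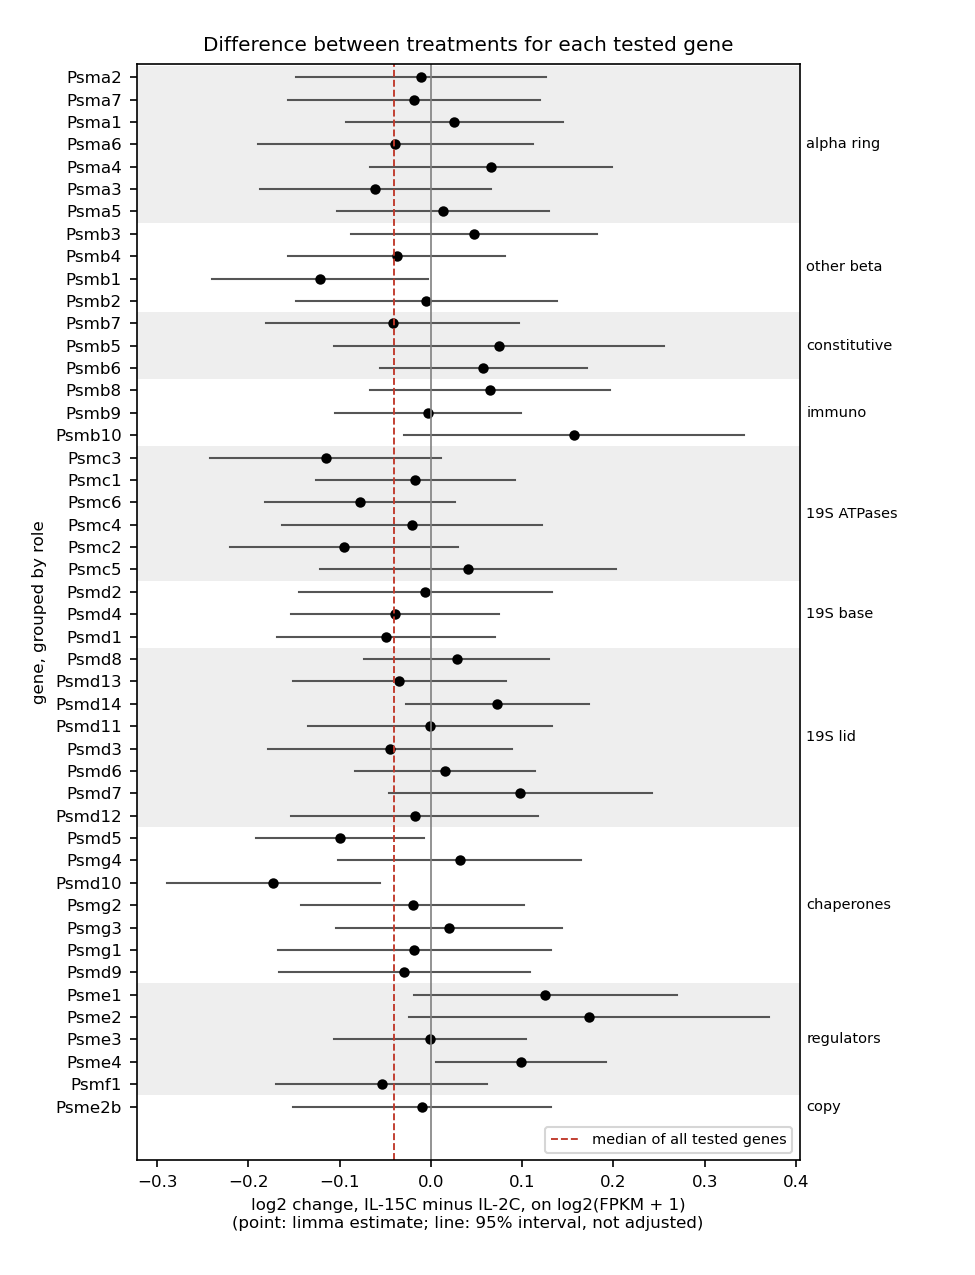
Log2 change in IL-15C relative to IL-2C (x axis, log2(FPKM + 1) scale) of each of the 47 tested genes (y axis, grouped by role), with lines for the 95% interval of limma's fit and a dashed line at the median of all tested genes (-0.04). All points lie between -0.17 and 0.17, and 4 intervals leave out 0.

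Proteasome genes were expressed at high levels. The means of 42 of the 47 genes lay above the median of all tested genes, 12.6 FPKM, and their own median was 39.7 FPKM. The order ran from Psmd9 at 4.90 FPKM to Psme1 at 146.6 FPKM, a 29.9-fold range. The 14 core genes other than the immunoproteasome subunits had a median mean of 59.6 FPKM and the 17 cap genes one of 32.7 FPKM. The ratio of core to cap medians was 1.88, 1.90 and 1.80 in IL-15C and, in the IL-2C group, 1.82, 1.72 and 1.92, so the groups overlapped. Over the 6 libraries the median coefficient of variation of the 47 genes was 5.71%, from 2.86% for Psmb9 to 12.0% for Psme2, beside 5.59% for the 7269 tested genes within the same range of levels. Together the 50 genes made up 0.670% of all FPKM in IL-15C replicate 1 and 0.610% to 0.624% in the other libraries.

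**Figure D2:**
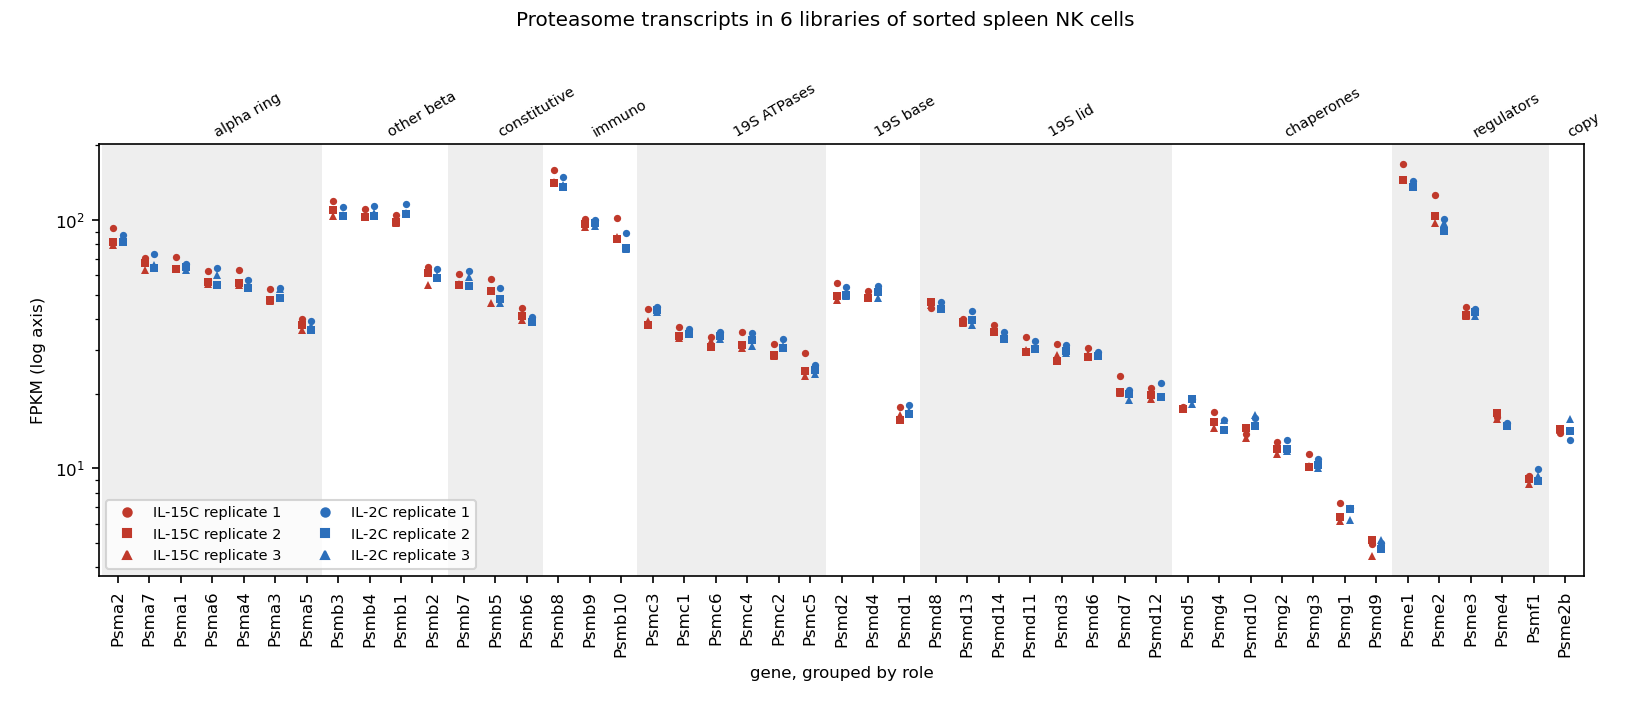
FPKM (log axis) of the 47 tested genes in each of the 6 libraries, grouped by role, with colours for the groups and shapes for the replicates. The immunoproteasome subunits and PA28 genes stand with the upper end of the core genes, the assembly chaperones stand lowest, and the points of both groups lie among each other in most genes.

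At each catalytic position, the transcript of the immunoproteasome subunit was more abundant than that of the subunit it replaces, in every library. These are RNA levels, and protein and assembled cores were not measured here. Psmb8, the subunit that replaces Psmb5 (chr17:34198195-34201454), stood at 159, 142 and 143 FPKM in IL-15C and at 149, 137 and 138 FPKM in IL-2C. Psmb9, which replaces Psmb6 (chr17:34182099-34187330), stood at 101, 96.7 and 94.1 FPKM and at 99.99, 97.8 and 94.96 FPKM. Both sets of values overlapped between the groups, and the log2 changes were 0.06 (SE 0.06, adjusted p = 0.508 by limma) for Psmb8 and -0.003 (SE 0.05, adjusted p = 0.971) for Psmb9. Psmb10, which replaces Psmb7 and lies outside the MHC (chr8:105935728-105938392), stood at 102, 83.6 and 85.4 FPKM in IL-15C and at 88.8, 77.1 and 76.2 FPKM in IL-2C. Its means of 90.2 ± 9.92 and 80.7 ± 7.001 FPKM (SD, n = 3 each) differed by 0.16 on the log2 scale (95% interval -0.03 to 0.34, adjusted p = 0.256 by limma). Replicate 1 was the highest library of each group and the groups overlapped. Without IL-15C replicate 1 the change of Psmb10 was 0.07.

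The constitutive catalytic subunits did not pass the test either, and their median change of 0.06 equalled that of the 3 immunoproteasome genes at 2 decimals. Psmb5, the chymotrypsin-like subunit (chr14:54614120-54617995), stood at 58.1, 52.0 and 46.4 FPKM in IL-15C and at 53.4, 48.2 and 46.5 FPKM in IL-2C. Psmb6, the caspase-like subunit (chr11:70525357-70527858), stood at 44.3, 41.0 and 39.4 FPKM and at 40.9, 38.7 and 40.0 FPKM. Psmb7, the trypsin-like subunit (chr2:38588046-38643906), stood at 60.7, 54.7 and 55.4 FPKM and at 62.6, 54.4 and 59.0 FPKM. The groups overlapped for all 3 genes. Their log2 changes were 0.07 (SE 0.08) for Psmb5, 0.06 (SE 0.05) for Psmb6 and -0.04 (SE 0.06) for Psmb7, with adjusted p of 0.581, 0.491 and 0.692 by limma.

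Ratios within a library do not depend on its scaling. The summed FPKM of Psmb8, Psmb9 and Psmb10 was 2.22, 2.18 and 2.28 times that of Psmb5, Psmb6 and Psmb7 in IL-15C and 2.15, 2.204 and 2.13 times in IL-2C. Put as a share, the immunoproteasome genes supplied 68.6% to 69.5% of the catalytic FPKM in IL-15C and 68.0% to 68.8% in IL-2C, and the groups overlapped. For the trypsin-like position, Psmb10 over Psmb7 was 1.67, 1.53 and 1.54 for IL-15C, whereas the IL-2C libraries gave 1.42, 1.42 and 1.29. This was the 1 pair of the 3 in which the groups did not overlap, with a log2 difference of 0.20 and a fold of 1.15. By an exact permutation test (two-sided) p = 0.1, which 3 libraries against 3 cannot go below, and 0.3 after adjustment over the 3 pairs. Psmb9 over Psmb6 averaged 2.34 ± 0.0521 in IL-15C and 2.45 ± 0.0759 in IL-2C (SD, n = 3 each, exact permutation p = 0.2, adjusted 0.3). Psmb8 over Psmb5 averaged 2.85 ± 0.202 and 2.87 ± 0.0994 (SD, n = 3 each, exact permutation p = 0.9, adjusted 0.9).

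**Figure D3:**
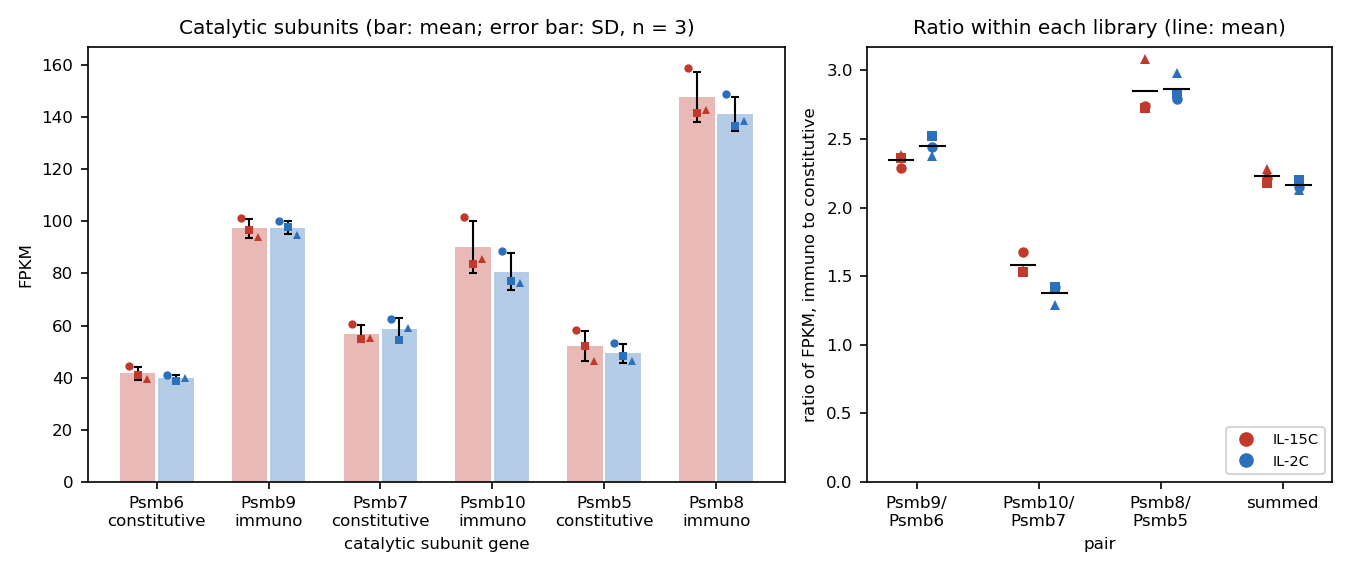
FPKM of the 6 catalytic subunits by library (left) and the ratio of each immunoproteasome subunit to the subunit it replaces, with that of the sums (right), with points for libraries, bars or lines for group means and error bars for the SD (n = 3). Psmb10 over Psmb7 lies at 1.53 to 1.67 in IL-15C and 1.29 to 1.42 in IL-2C, and the other ratios overlap.

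Of the activators, PA28 had the most abundant and the most variable transcripts. Psme1, its alpha subunit (chr14:55578494-55581527), stood at 169, 145 and 145 FPKM in IL-15C and at 144, 136 and 140 FPKM in IL-2C, so the groups did not overlap, with less than 1 FPKM between the lowest IL-15C and the highest IL-2C library. Psme2, its beta subunit (chr14:55587440-55591101), stood at 126, 104 and 97.9 FPKM and at 101, 90.4 and 97.7 FPKM, and its groups overlapped. In both genes IL-15C replicate 1 was well above the other 5 libraries. The log2 changes were 0.13 (SE 0.06, adjusted p = 0.241 by limma) for Psme1 and 0.17 (SE 0.09, adjusted p = 0.238) for Psme2, and 0.05 and 0.07 without IL-15C replicate 1. The ratio of Psme1 to Psme2 was 1.41 ± 0.0741 in IL-15C and 1.45 ± 0.0422 in IL-2C (SD, n = 3 each), with overlap. Psme1 overlaps the gene Emc9 in the genome, and reads of Psme2 can be shared with its near-identical copy Psme2b, so the values of these genes are less certain. Psme2b has 1 exon against 11 of Psme2 and was 99.3% identical over 716 aligned bases. It was listed at 13.9, 14.4 and 14.3 FPKM in IL-15C and at 13.1, 14.1 and 15.8 FPKM in IL-2C.

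Psme4, which encodes the nuclear activator PA200, had a mean of 15.6 FPKM and a coefficient of variation of 4.50%. It stood at 16.1, 16.7 and 15.8 FPKM in IL-15C and at 15.3, 14.8 and 15.2 FPKM in IL-2C, with no overlap. The log2 change was 0.10 (SE 0.04), with an unadjusted p of 0.0406 and an adjusted p of 0.165 by limma. Psme3, the nuclear PA28 gamma, stood at 41.3 to 44.6 FPKM and 41.1 to 43.9 FPKM, and Psmf1, the inhibitor PI31, at 8.68 to 9.30 FPKM and 8.93 to 9.93 FPKM. Neither gene passed the test and both overlapped between the groups.

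None of the other core genes passed the test. The 7 tested alpha ring genes had means from 37.9 FPKM (Psma5) to 85.0 FPKM (Psma2), with 3 changes above 0 and 4 below and a median of -0.01. The 4 noncatalytic beta subunits had means from 60.3 FPKM (Psmb2) to 109 FPKM (Psmb3), with a median change of -0.02. Among these, Psmb1 had the most negative change. It stood at 105, 98.5 and 97.6 FPKM in IL-15C and at 116, 106 and 107 FPKM in IL-2C, where every IL-2C library was above every IL-15C library. The gap was narrow, from 105.3 FPKM in IL-15C replicate 1 to 105.5 FPKM in IL-2C replicate 2. The log2 change was -0.12 (SE 0.05, adjusted p = 0.174 by limma).

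In the 19S cap the ATPases, which unfold and thread the substrate, had means from 25.4 FPKM (Psmc5) to 41.9 FPKM (Psmc3) and a median change of -0.05 over 6 genes. Psmc3 stood at 43.8, 37.8 and 39.1 FPKM in IL-15C and at 44.7, 43.4 and 42.7 FPKM in IL-2C. IL-15C replicate 1 lay among the IL-2C values and the other 2 IL-15C libraries lay below them, and the change was -0.12 (SE 0.06, adjusted p = 0.222 by limma). Psmc2 stood at 31.8, 28.6 and 28.3 FPKM and at 33.2, 30.6 and 31.1 FPKM, with overlap and a change of -0.09 (adjusted p = 0.303). The base scaffold and receptor genes ran from 16.9 FPKM (Psmd1) to 51.2 FPKM (Psmd2), with a median change of -0.04 over 3 genes. The 8 lid genes ran from 20.2 FPKM (Psmd12) to 45.2 FPKM (Psmd8), with a median change of 0.01. Psmd14, the deubiquitinase of the lid, stood at 37.9, 35.5 and 35.5 FPKM in IL-15C and at 35.3, 33.4 and 34.8 FPKM in IL-2C. These groups did not overlap, but the lowest IL-15C library (35.52 FPKM) was close to the highest IL-2C library (35.31 FPKM). The change of Psmd14 was 0.07 (SE 0.04, adjusted p = 0.323 by limma). Psmd7, its partner in the lid, stood at 23.5, 20.3 and 20.2 FPKM and at 20.7, 19.9 and 18.8 FPKM, with overlap and a change of 0.10 (SE 0.06, adjusted p = 0.354).

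Assembly chaperones that fit the name rule were the lowest group, with means from 4.90 FPKM (Psmd9) to 18.1 FPKM (Psmd5). Their median change was -0.02 over 7 genes. Pomp, a core chaperone outside the rule, stood at 59.2 to 78.9 FPKM and is described below. Psmd10, also called gankyrin, helps to assemble the 19S base and is on the X chromosome (chrX:140948425-140956711). It stood at 13.8, 14.5 and 13.3 FPKM in IL-15C and at 16.0, 14.9 and 16.4 FPKM in IL-2C, so all IL-15C libraries were below all IL-2C libraries. The means of 13.9 ± 0.640 and 15.8 ± 0.803 FPKM (SD, n = 3 each) differed by -0.17 on the log2 scale (SE 0.05, 95% interval -0.29 to -0.06). Its adjusted p of 0.0754 by limma was the smallest of the 47 genes and did not pass the threshold. Psmd5, another chaperone of the base, stood at 17.7, 17.3 and 17.3 FPKM in IL-15C and at 19.04, 19.1 and 18.2 FPKM in IL-2C. Its groups did not overlap either, with a change of -0.10 (SE 0.04, adjusted p = 0.156 by limma). The core chaperones Psmg1, Psmg2, Psmg3 and Psmg4 stood between 6.13 and 16.8 FPKM over the 6 libraries, with overlap in all 4 genes.

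There were 3 genes below the filter, and no test was made of them. Psmb11, the catalytic subunit of the thymoproteasome of thymic cortical epithelium, was at 0 in 4 libraries and at 0.00455 and 0.00450 FPKM in IL-2C replicates 2 and 3. Psma8, the testis form of an alpha subunit, was listed at 0, 0 and 0.0152 FPKM in IL-15C and at 0.0168, 0.0138 and 0.0137 FPKM in IL-2C. Psmc3ip fits the rule by its name alone, since it encodes a factor of meiotic recombination and no proteasome subunit, and it stood at 0.281 to 0.577 FPKM and 0.352 to 0.677 FPKM.

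As deposited, most proteasome genes were highest in the same library of each group. IL-15C replicate 1 was the highest of its group in 42 of 47 genes (89.4%), and in 53.2% of all tested genes. IL-2C replicate 1 was likewise the highest of its group in 42 of 47 genes (89.4%), and in 50.5% of all tested genes. All 17 tested core genes were highest in replicate 1 of both groups. The median deviation of the 47 genes from their overall mean on the log2 scale was 0.08, -0.03 and -0.06 for IL-15C replicates 1 to 3 and 0.06, -0.04 and -0.03 for those of IL-2C. For all tested genes these medians were 0.0062, -0.03 and -0.04, and 0.05, 0.02 and -0.0069, so the proteasome genes stood further from all genes in IL-15C replicate 1 than in IL-2C replicate 1. After scaling to a common median, IL-15C replicate 1 was highest in 85.1% of the 47 genes, beside 38.5% of all tested genes, and IL-2C replicate 1 in 70.2%, beside 39.3%. Under TPM the shares were 87.2%, beside 41.3%, and 36.2%, beside 19.2%, and IL-2C replicate 3 was then the library of its group most often highest (38.3%). The granulocyte, erythroid, T cell and monocyte and macrophage marker sums given above were also highest in IL-15C replicate 1, and their part in its proteasome values was not tested.

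**Figure D4:**
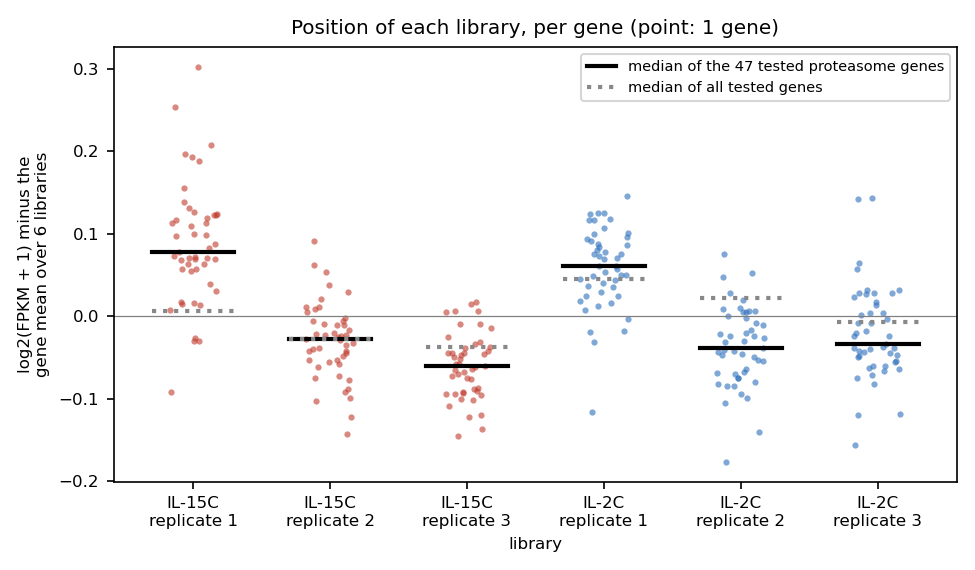
Deviation of each of the 47 tested proteasome genes from its mean over the 6 libraries (y axis, log2 scale) in each library (x axis), with the median of those genes and of all tested genes. The medians of the proteasome genes sit above 0 in replicate 1 of both groups, at 0.08 and 0.06, and below 0 in the other 4 libraries.

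Genes that act with the proteasome were taken from 5 lists. None of the 11 tested partner genes passed the test. Pomp, the chaperone that completes the core, stood at 78.9, 66.9 and 68.5 FPKM in IL-15C and at 64.0, 59.2 and 60.7 FPKM in IL-2C, with no overlap (log2 change 0.21, SE 0.06, adjusted p = 0.0755 by limma). It passed the threshold after scaling to a common median (0.26, adjusted p = 0.0339), under TPM and quantile normalization, and with array weights (0.0229), but not when any single library was left out (0.0961 to 0.214). The deubiquitinase Uchl5 (-0.20, adjusted p = 0.0729) and Fbxo7, which binds the inhibitor PI31 (-0.17, adjusted p = 0.0608), did not pass. Both did without IL-15C replicate 1, with adjusted p of 0.0199 and 0.0481 by limma, and with array weights, with 0.00655 and 0.0169.

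Of 9 genes that regulate proteasome genes, none rose and 1 fell (beside 4.72% of all tested genes). This was Nfe2l2, which encodes the transcription factor NRF2. Nfe2l2 stood at 21.5, 20.7 and 22.0 FPKM in IL-15C and at 25.7, 26.1 and 24.6 FPKM in IL-2C, with no overlap and a log2 change of -0.24 (SE 0.04, adjusted p = 0.0200 by limma). With IL-15C replicate 2 left out its adjusted p was 0.0702, and with replicate 1 or 2 of IL-2C left out it was 0.0785 and 0.0972. Without the filter on low values it was 0.0669. The others with the smallest p in this list were Foxo4 (-0.10, adjusted p = 0.238) and the protease gene Ddi2 (0.07, adjusted p = 0.468). Nfe2l1, which encodes the factor that raises proteasome genes when the proteasome is inhibited, had a change of 0.01 (adjusted p = 0.896).

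Of 16 genes for ubiquitin, its activation and its delivery to the proteasome, none rose and 2 fell (beside 4.72% of all tested genes). Faf1, an adaptor of the segregase VCP, stood at 10.0, 8.90 and 9.51 FPKM in IL-15C and at 12.5, 11.5 and 10.8 FPKM in IL-2C (-0.27, SE 0.06, adjusted p = 0.0371 by limma). Ufd1l, a VCP cofactor, stood at 25.3, 24.8 and 25.8 FPKM and at 28.7, 28.3 and 28.3 FPKM (-0.16, adjusted p = 0.0415). The groups did not overlap in either gene. Both calls were lost without the filter on low values (adjusted p = 0.106 for Faf1 and 0.0669 for Ufd1l) and when single libraries were left out. For Faf1 the adjusted p was 0.110 and 0.0832 when replicate 2 or 3 of IL-15C was left out, and 0.124 and 0.119 when replicate 1 or 2 of IL-2C was. For Ufd1l it was 0.0543, 0.139 and 0.0889 without replicates 1, 2 and 3 of IL-15C in turn, and 0.115, 0.134 and 0.0658 without those of IL-2C. It was also 0.0632 to 0.0882 under the other scalings and 0.0586 without the intensity trend. Ubb, a polyubiquitin gene, did not pass with all libraries (adjusted p = 0.285) but was called higher when IL-15C replicate 3 was left out (adjusted p = 0.0498).

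None of the 6 tested interferon regulators passed the test. All 6 had changes above 0 (beside 35.3% of all tested genes), with a median of 0.11. IL-15C replicate 1 was the highest library of its group in all 6 genes, beside 53.2% of all tested genes. Single libraries set some of these signs, since Irf9 was below 0 without IL-15C replicate 1, Ifngr1 when IL-2C replicate 2 was left out and Irf1 when IL-2C replicate 3 was. Nlrc5, the transactivator of MHC class I genes, stood at 43.2, 35.2 and 36.5 FPKM in IL-15C and at 30.6, 33.0 and 34.5 FPKM in IL-2C (0.22, SE 0.08, adjusted p = 0.110 by limma). Its groups did not overlap, and IL-15C replicate 1 was well above the rest. Irf8 had a change of 0.16 (adjusted p = 0.550). Of 10 genes that prepare peptides for MHC class I, none passed, and those with the smallest p were the peptidase Tpp2 (-0.09, adjusted p = 0.149), the trimming enzyme Erap1 (0.11, adjusted p = 0.280) and the transporter subunit Tap2 (0.09, adjusted p = 0.341). Tap1, whose start site adjoins that of Psmb9, averaged 83.7 ± 3.28 FPKM in IL-15C and 84.9 ± 4.16 FPKM in IL-2C (SD, n = 3 each), with a change of -0.02 (adjusted p = 0.826 by limma).

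The group values of the authors' deposited table, which pool the libraries of a group and were scaled separately, gave intervals that overlapped for all 47 genes, and 0.814% of all tested genes had intervals that did not overlap. The ratio of IL-15C to IL-2C in the authors' deposited table ran from 0.907 (Psmd10) to 1.17 (Psme2). For Psmb10 the authors' deposited table gives 122 FPKM (104 to 141) in IL-15C and 106 FPKM (90.1 to 122) in IL-2C.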

How the data were processed

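The tools were TopHat2 2.0.13 and Cufflinks 2.2.1 on mm10, per the submitters' processing notes, while annotation and strand setting are not given in the sources used here. FPKM values were deposited by the authors per gene and library with lower and upper bounds, and as group values from Cuffdiff without fold changes or p-values, per the file headers. No count model was fitted. For 280 genes with several rows the rows were added up, and 10 genes with a failed estimate were dropped. Fragments were implied from each deposited interval, read as 2 SD of a Poisson count, and were 215 to 7847 per tested proteasome gene and library. They cover counting error only.

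Changes are IL-15C minus IL-2C on log2(FPKM + 1), which understates changes of low genes, tested two-sided over all 6 libraries by limma 3.58.1 with an intensity trend (R 4.3.3) in genes with a mean of at least 1 FPKM, with Benjamini-Hochberg adjustment. The script was tested on simulated data. Ratios of subunits were compared by exact permutation (scipy 1.17.1), with no p for sums over genes. Named genes are the catalytic subunits, activators and inhibitor, the 5 most positive and 5 most negative changes, the highest and lowest gene of each group, genes below the filter and, of each pathway list, called genes and the 3 with the smallest adjusted p. Psmd14, Nfe2l1, Tap1, Ubb, Psme2b and the Psmg genes were chosen after their values were seen or for context. Some genes that this rule would name are not reported here. The genes and lists were chosen with earlier results of these data known. The alternatives were other pseudocounts (0.1 and 5), filters, scalings, variance models, a replicate block and leaving out each library.

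Positions are the authors' on mm10, written 1-based. Promoters are from RefSeq (GRCm38.p6), and exon numbers and the Psme2b alignment from GENCODE M21. Protein sequences were not used here. Psma3, Psmc3ip, Psme1 and Psme2b overlap another tested gene, whose reads may be mixed with theirs. Python 3.11.15, pandas 2.3.3, numpy 2.4.6 and matplotlib 3.10.9 were used.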

Additional observations from a re-analysis of the deposited data

How the results depend on the processing

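Over 16 alternatives, 747 of 751 values of single proteasome genes stayed without a call and 4 gained one. With array weights, 1 gene was called higher (Psme4) and 2 lower (Psmc3 and Psmd5), while 21.4% of all tested genes were called. Leaving out each library gave 0 to 1 gene lower, the 1 being Psmc3 without IL-15C replicate 1. Among all tested genes, 169 were higher and 464 lower; these counts were 6 and 9 without the filter, 325 and 207 with a common median, 204 and 326 under TPM, 307 and 269 with quantile normalization, and 440 and 1667 with array weights. Leaving out each library gave 14 to 176 higher and 15 to 575 lower. For Psmb8 over Psmb5, the log2 difference of -0.011 ran from -0.069 to 0.020 and was above 0 without IL-15C replicate 1 (0.017), IL-15C replicate 2 (0.020) or IL-2C replicate 3 (0.017). For Psmb10 over Psmb7 it ran from 0.16 to 0.23 and was 0.20 from the authors' deposited group values. For libraries with the same replicate number, deviations from group means over all tested genes correlated at -0.03, -0.16 and -0.02. The largest correlation, 0.18, was between IL-15C replicate 1 and IL-2C replicate 2. Such a correlation leaves out a shift shared by all genes of a library. As deposited, replicate 1 was the highest library of its group in 42 of the 47 proteasome genes in each group. The 42 genes were not all the same in IL-15C and IL-2C. The shares of all tested genes were 53.2% in IL-15C and 50.5% in IL-2C. Under TPM, IL-2C replicate 1 was highest in 36.2% of the 47 genes. With the replicate number as a block, 0 proteasome genes, and 171 higher and 346 lower genes of all, were called, and the Psmb10 over Psmb7 difference of 0.20 had p = 0.25 by an exact sign-flip permutation test, the smallest 3 pairs allow. Under the block Ufd1l lost its call (adjusted p = 0.0521 by limma) and Pomp gained one (0.0402). The smallest adjusted p of a proteasome gene under the block was that of Psmb10 (0.0547 by limma, SE 0.04). In the main fit Psmb10 had an adjusted p of 0.256 by limma and an SE of 0.08. The causes of these shifts were not tested. The median SE was 0.06 on the log2 scale with 3 libraries a group, and counting error is part of it.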
